A study of Arabidopsis thaliana with 4 samples.

Results

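The 10 genes described here belong to the Arabidopsis thaliana system that senses microbial patterns and the plant's own damage peptides. They are the loci AT5G64900, AT5G64890 and AT5G64905 (PROPEP1, PROPEP2 and PROPEP3), AT1G73080 and AT1G17750 (PEPR1 and PEPR2), AT5G46330 (FLS2), AT5G20480 (EFR), AT4G33430 (BAK1), AT2G39660 (BIK1) and AT2G19190 (FRK1). They were chosen by locus code, with earlier results of these data known, and all 10 were present among the 30361 loci of the array. Comparisons of the members with all loci are therefore descriptive. Each of the 10 codes carried the same symbol in the RefSeq gene table.

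Plants of the wild-type accession Col-0 were kept for 30 min with the vapour of (E)-2-hexenal at 10 µM, a reactive leaf aldehyde dissolved in acetonitrile, or with acetonitrile as the solvent control. The hexenal group had 3 arrays, called biological replicates in the labels, and the control group had 1. For the hexenal treatment, 3 µL of a 1 M solution was placed on paper under the lid of a closed 340 cm3 box at 25 °C. Each RNA came from a pool of at least 6 plants, and the labels name no organ and give no age. The question put by the series title is which stress-related genes such leaf volatiles induce.

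Plant cells read molecules of microbes and of their own damaged cells with receptor kinases at the cell surface. PROPEP genes encode small precursor proteins whose released ends, the Pep peptides, are bound by the leucine-rich repeat receptor kinases PEPR1 and PEPR2. FLS2 binds a peptide of bacterial flagellin and EFR one of the bacterial elongation factor EF-Tu. These receptors pair with the co-receptor kinase BAK1 once the ligand is bound and pass the signal to the cytoplasmic kinase BIK1. FRK1, a receptor-like kinase gene induced by flagellin peptide, is a common reporter of the early transcriptional output.

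No member was called after 30 min of hexenal, where a call needed a 2-fold change or more together with an adjusted p below 0.05 (limma, Benjamini-Hochberg over all loci). By that rule 0.899% of all loci were called in either direction and 0.866% were called higher. The ligand precursor, receptor, co-receptor and BIK1 genes nevertheless had a higher intensity on each of the 3 hexenal arrays than on the control array. These were 9 of the 10 members. On array 3 PROPEP2, PROPEP3 and FLS2 were barely above it, at log2 differences of 0.01, 0.08 and 0.09. The rest of the 9 were at 0.24 or more there. The reporter FRK1 was below the control on all 3. Of all loci, 26.1% lay above the control on all 3 hexenal arrays and 32.4% lay below it on all 3. The 3 differences of a gene share the single control array, so an unusual control value moves all of them in the same way.

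The members' median log2 difference between hexenal and control was 0.68, beside -0.03 over all loci. PEPR2, PROPEP1 and BIK1 were at least 2-fold higher, as were 4.27% of all loci, and no member was at least 2-fold lower, as were 2.95%. PEPR1, PEPR2, EFR and BIK1 were higher at an unadjusted p under 0.05, as were 5.83% of all loci. Without hexenal array 2 the first of these counts fell from 3 to 1 (BIK1) and the second from 4 to 2 (EFR and BIK1). The shares of all loci were then 4.24% and 3.84%. Without hexenal array 1 PROPEP1 was no longer 2-fold higher and EFR no longer passed the unadjusted threshold. The counts were then 2 and 3, beside 3.67% and 5.08% of all loci. Without hexenal array 3 they were 3 and 6, beside 5.82% and 9.77%.

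**Figure D1:**
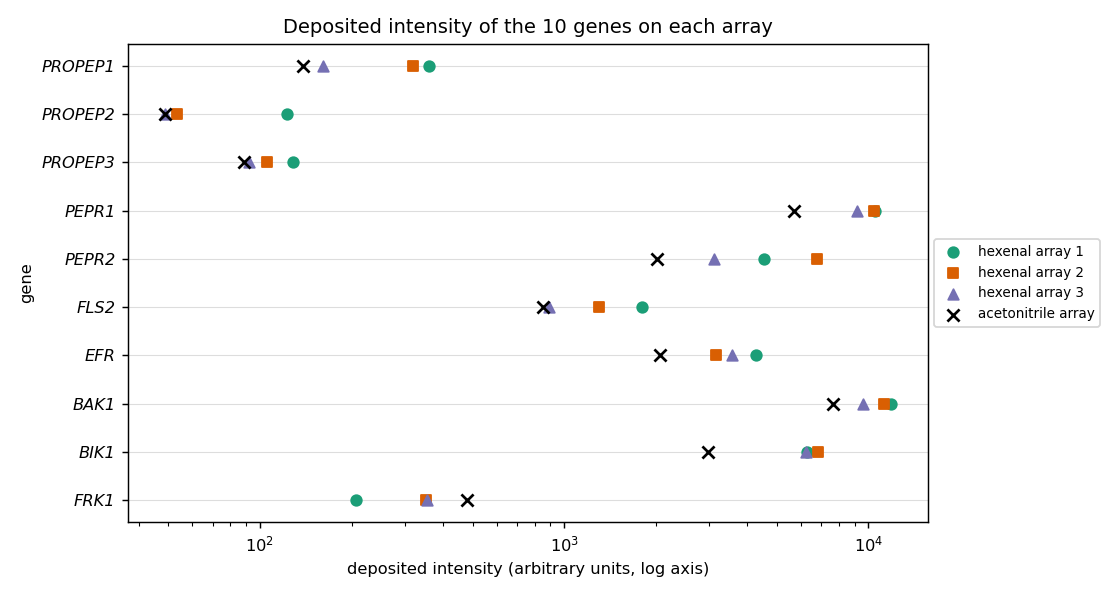
The deposited intensity of each gene (horizontal log axis, arbitrary units) is shown on the acetonitrile array (cross) and on hexenal arrays 1 (circle), 2 (square) and 3 (triangle). In 9 genes the cross lies left of all 3 hexenal symbols, and in FRK1 it lies right of them; intensities of different genes come from different probes and are not comparable.

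The ligand precursor genes came first in the order of the pathway, and all 3 were dim on the control array, in the lowest 25% of loci. PROPEP1, the precursor of the Pep1 peptide, had a deposited intensity of 139 with acetonitrile and of 359, 318 and 162 on hexenal arrays 1, 2 and 3. Arrays 1 and 2 were well above the control, whereas array 3 lay close to it. On the scale of quantile-normalized log2 intensity, PROPEP1 went from 7.04 on the control array to 8.05 ± 0.67 (SD, n = 3), a log2 fold change of 1.01 ± 0.52 (SE). The adjusted p was 0.661 by limma, and the 95% interval ran from -0.31 to 2.32.

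PROPEP2 had an intensity of 48.6 with acetonitrile and of 123, 53.4 and 48.8 with hexenal. Only array 1 stood clear of the control, and the control value was near the lowest intensity of any locus and array, 41.3, with 0.28% of loci at or below it. This gave a log2 fold change of 0.52 ± 0.60 (SE; adjusted p = 0.824 by limma), and without hexenal array 1 it was 0.07. PROPEP3, whose transcript is known for its induction by pattern and Pep treatment, had an intensity of 88.4 with acetonitrile and of 129, 105 and 92.2 with hexenal. Its hexenal arrays fell in the same order as those of PROPEP1 and PROPEP2, array 1 highest and array 3 lowest. Its log2 fold change was 0.36 ± 0.31 (SE; adjusted p = 0.758). The deposited values come without a background level, so the size of a change in such dim genes depends on the background they still hold.

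The SD over the 3 hexenal arrays was large in 2 of the precursor genes, 0.67 for PROPEP1 and 0.78 for PROPEP2 on the log2 scale, where the median over all loci was 0.24. PROPEP3, at 0.30, was nearer to that median. These 3 genes are consecutive among the array's loci on chromosome 5, in the order PROPEP2, PROPEP1, PROPEP3. The loci on either side of the group, AT5G64880 and AT5G64910, had log2 fold changes of 0.49 ± 0.27 and 0.40 ± 0.27 (SE; adjusted p = 0.673 and 0.701 by limma). Both flanking loci were highest on hexenal array 3, where the precursor genes were lowest. Whether these neighbouring genes share probes was not tested.

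The Pep receptor genes were higher than the control by more than their SD over the hexenal arrays, although neither was called. The same held for the other members with a mean above the control, except PROPEP2. PEPR1 had an intensity of 5685 with acetonitrile and of 10515, 10396 and 9181 with hexenal. Its 3 hexenal values lay close together, all well above the control, with an SD of 0.10 on the log2 scale. Between hexenal and control the log2 fold change was 0.79 ± 0.24 (SE), or 1.73-fold, with a 95% interval from 0.19 to 1.40 and an adjusted p of 0.396 by limma.

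PEPR2, the second Pep receptor, had an intensity of 2013 with acetonitrile and of 4518, 6766 and 3111 with hexenal. Here array 2 was highest and array 3 lowest, with no overlap with the control. Its log2 fold change of 1.15 ± 0.45 (SE), or 2.22-fold, was the highest of the 10 members, and its SD over the hexenal arrays was 0.56. The 95% interval ran from 0.02 to 2.29 and the adjusted p was 0.560. Set against each other within an array, the log2 difference from control of PEPR1 minus that of PEPR2 was -0.27, -0.88 and 0.07 on arrays 1, 2 and 3. Its mean of -0.36 ± 0.48 (SD, n = 3) was smaller than its spread, and the order of the 2 receptors reversed on array 3.

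The receptors for bacterial patterns were also higher on every hexenal array. EFR had an intensity of 2069 with acetonitrile and of 4259, 3165 and 3567 with hexenal. All 3 values were above the control and no array was near it. The log2 fold change was 0.78 ± 0.27 (SE), with a 95% interval from 0.09 to 1.47 and an adjusted p of 0.494 by limma.

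FLS2 had an intensity of 849 with acetonitrile and of 1802, 1298 and 892 with hexenal. Array 1 was more than 2-fold above the control, array 2 intermediate and array 3 at nearly the control's value. For FLS2 the log2 fold change, 0.57 ± 0.41 (SE; adjusted p = 0.710), was 0.81 without array 3 and 0.34 without array 1. The log2 difference from control of FLS2 minus that of EFR was 0.04 on array 1, 0.01 on array 2 and -0.68 on array 3.

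BAK1, the co-receptor shared by these receptors and by the brassinosteroid receptor BRI1, had an intensity of 7617 with acetonitrile and of 11881, 11216 and 9590 with hexenal. The arrays again fell in the order 1, 2, 3, all above the control. BAK1 had a log2 fold change of 0.49 ± 0.25 (SE), the 95% interval ran from -0.14 to 1.13 and the adjusted p was 0.659 by limma.

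BIK1, the kinase that carries the signal from the receptor complex to targets such as the NADPH oxidase RBOHD, was the most even of the members. Its intensity was 2972 with acetonitrile and 6279, 6803 and 6237 with hexenal. Every hexenal array was about the same distance above the control, at log2 differences of 1.05, 1.17 and 1.04. The SD of 0.07 over the hexenal arrays was lower than that of any other member. Its log2 fold change was 1.09 ± 0.23 (SE), or 2.13-fold, with a 95% interval from 0.50 to 1.68. BIK1 had the smallest p of the members and ranked 730 of 30361 loci by p, with an adjusted p of 0.191 by limma. With an eBayes fit that lets the variance follow the level and is robust to outlying variances, BIK1 passed the threshold (adjusted p = 0.0463), and over the alternatives tried its adjusted p ran from 0.0463 to 0.772.

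FRK1 went the other way. Its intensity was 478 with acetonitrile and 207, 352 and 355 with hexenal. All 3 hexenal arrays were below the control, array 1 by most, which is the array where 7 of the other 9 members were highest. Its log2 fold change was -0.65 ± 0.36 (SE), the 95% interval ran from -1.54 to 0.25 and the adjusted p was 0.673 by limma. Without hexenal array 1 the value was -0.42.

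**Figure D2:**
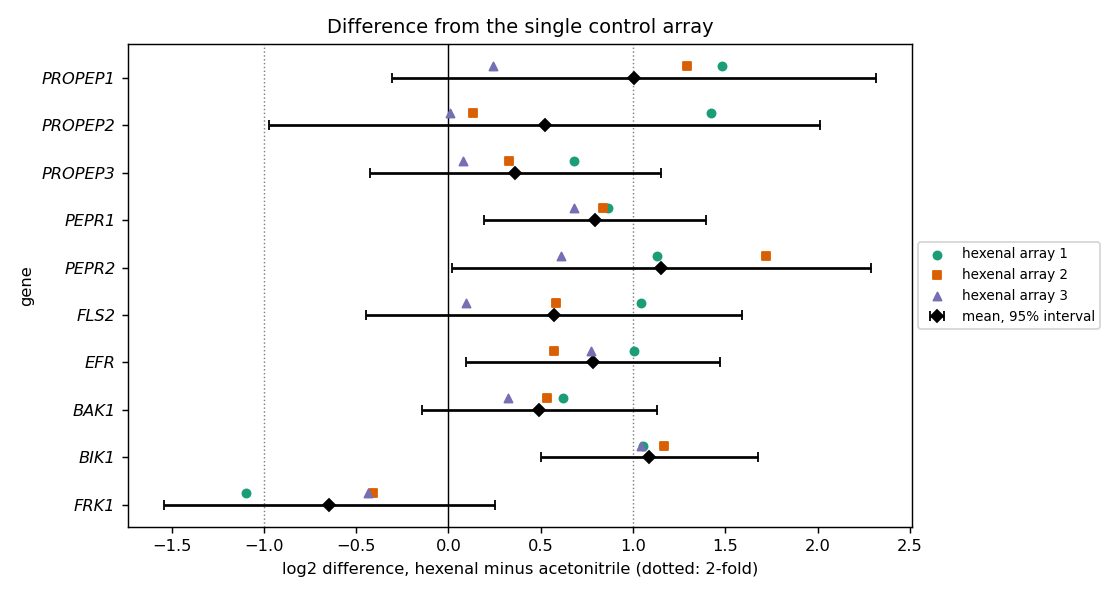
The log2 difference from the acetonitrile array (horizontal axis) is shown for each hexenal array (coloured symbols) and as the mean with limma's 95% interval (diamond and bar); dotted lines mark a 2-fold change. The intervals of PEPR1, PEPR2, EFR and BIK1 lie above 0 before any adjustment, and those of the 3 PROPEP genes, FLS2, BAK1 and FRK1 include 0.

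Ordered by log2 fold change the members were PEPR2 (1.15), BIK1 (1.09), PROPEP1 (1.01), PEPR1 (0.79), EFR (0.78), FLS2 (0.57), PROPEP2 (0.52), BAK1 (0.49), PROPEP3 (0.36) and FRK1 (-0.65). Steps between neighbours from PEPR2 down to PROPEP3 were at most 0.21, which is below the SE of every member, so genes next to each other in this order are not resolved.

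The hexenal arrays did not contribute equally. Array 3 gave the lowest hexenal value in 8 of the 10 members, compared with 38.4% of all loci. Among the 9 members with a mean above the control, array 3 was lowest in 8, and it was lowest in 57.4% of the 14017 loci with a mean above the control. The members' median log2 difference from control was 1.02 on array 1, 0.58 on array 2 and 0.28 on array 3. That of all loci was -0.02, -0.03 and -0.04. Among the 14017 loci with a mean above the control the medians were 0.38, 0.32 and 0.14. Among the 9 such members they were 1.045, 0.58 and 0.32. The fall from array 1 to array 3 was therefore not particular to the members.

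Array 1 also differed in genes of flower identity. The 5 flower markers AP1, AP3, PI, AG and SEP3 had a median log2 difference from control of 0.95 on array 1, -0.07 on array 2 and -0.01 on array 3. Their intensities ranged from 52.0 to 94.1 on the control array and from 95.1 to 308 on array 1. On arrays 2 and 3 they ranged from 54.6 to 76.7 and from 49.0 to 85.5. PI hardly differed on array 1, at 96.0 beside 94.1 on the control array, a log2 difference of 0.14. AP1, AP3, AG and SEP3 were at log2 differences of 1.97, 1.17, 0.86 and 0.95 there. The lowest intensity of any locus and array was 41.3. The size of a change in such dim markers therefore depends on the background they still hold, which is not known. PROPEP2 had the same pattern as the median of these markers, with array 1 alone clear of the control. Whether flower tissue has a part in the value of PROPEP2 was not tested. In bulk RNA, a change in the share of an organ and a change in RNA per cell cannot be told apart. Root markers also varied between arrays. The root glucosidase gene PYK10 had an intensity of 29359 with acetonitrile and of 13138, 32057 and 21676 with hexenal, lowest on array 1, and COBL9, a root hair gene, was at a log2 difference of -0.68, -0.10 and 0.07 on arrays 1, 2 and 3. The other 3 root markers, SCR, PIN2 and IRT1, were above the control on array 1, and the 5 together had medians of 0.23, 0.12 and -0.11. Over the 3 arrays the 5 root markers had a median log2 fold change of -0.02, and the 4 leaf markers one of -0.07. Whether the share of flower or root tissue in array 1 has a part in the members' values there was not tested. The leaf markers RBCS1A, RCA and PSBO1 had intensities of 34731 or more on every array. The fourth leaf marker, the antenna protein gene CAB2, was dim with acetonitrile, at 90.1, and at 381, 223 and 441 with hexenal.

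**Figure D3:**
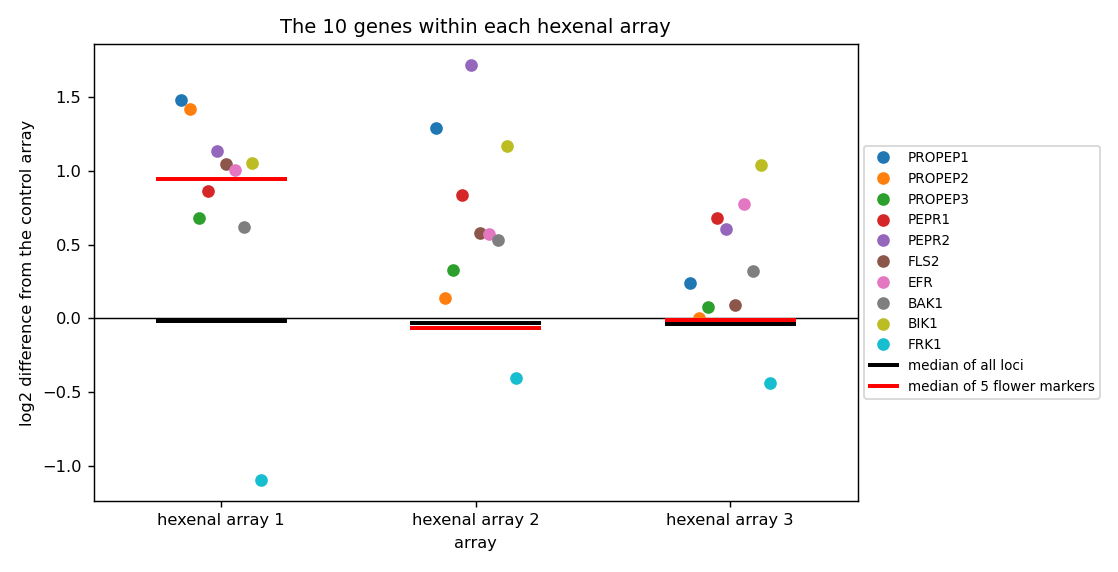
For each hexenal array, the log2 difference from the acetonitrile array (vertical axis) is shown for the 10 genes (points), with the median of all 30361 loci (black bar) and of 5 flower markers (red bar). The 9 points above 0 reach lower values on array 3 than on array 1, and the flower marker median stands apart from 0 on array 1 alone, at 0.95.

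Other genes of the same pathway were read from 6 lists, of which 47 genes could be used. The lists were also chosen with earlier results of these data known, so their comparison with all loci is descriptive too. Of these 47 genes, 3 were called higher and none was called lower, with a median log2 fold change of 0.56. On all 3 hexenal arrays 30 genes were above and 7 below the control. Over all loci 0.899% were called, the median was -0.03, and 26.1% lay above and 32.4% below the control on all 3. At an unadjusted p under 0.05, 18 of the 47 were higher, beside 5.83% of all loci, and 1 was lower. The count of 3 was 6 without hexenal array 1 and 0 without hexenal array 2, when no locus of the whole array was called and the 3 genes had adjusted p values from 0.163 to 0.214.

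None of the 3 other PROPEP genes with a value passed the test, and their median log2 fold change was 0.57. PROPEP4 had the highest, 0.75 ± 0.25 (SE; adjusted p = 0.473 by limma), with intensities of 128 with acetonitrile and of 212, 179 and 213 with hexenal. Unlike PROPEP1 to PROPEP3, it was not lowest on array 3. Among 3 precursors of other signalling peptides none passed, with a median of 0.38, and the phytosulfokine precursor gene PSK4 was at 0.81 ± 0.40 (adjusted p = 0.651). This count leaves out 3 loci put on the same list that have no name in the reference, and 1 of them, AT4G37290, singled out after its values were seen, was called. AT4G37290 had an intensity of 204 with acetonitrile and of 2640, 2752 and 2832 with hexenal, a log2 fold change of 3.84 ± 0.23 (SE; adjusted p = 0.00878 by limma).

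Of 16 genes for other cell-surface receptors and their partners none passed the test, with a median of 0.36. On all 3 hexenal arrays 9 were above the control and 3 below it, beside 26.1% and 32.4% of all loci. The chitin receptor gene LYK5 had an intensity of 1840 with acetonitrile and of 7137, 13042 and 11654 with hexenal. Its log2 fold change was 2.45 ± 0.40 (SE; adjusted p = 0.0886 by limma). LYK4, a related chitin co-receptor gene named after its values were seen, was at 2.39 ± 0.34 (adjusted p = 0.0622), with intensities of 379 with acetonitrile and of 2158, 2336 and 1436 with hexenal. CERK1, the kinase with which these chitin receptors work, was also named after the fact and was at 0.12 ± 0.24.

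The 4 genes related to BAK1 in the SERK family had a median log2 fold change of 0.48 and none passed. SERK5 was the highest at 1.05 ± 0.28 (SE; adjusted p = 0.311 by limma), with intensities of 387 with acetonitrile and of 951, 687 and 715 with hexenal.

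Among 14 genes for partners and negative regulators of the receptor complex, 1 was called higher, none was called lower and the median was 0.83. The share of all loci called higher was 0.866%. On all 3 hexenal arrays 12 were above the control and 1 below it, beside 26.1% and 32.4% of all loci. PUB24, one of a trio of ubiquitin ligases that dampen pattern signalling, had an intensity of 285 with acetonitrile and of 4143, 4388 and 2194 with hexenal. It rose 12.4-fold (log2 fold change 3.64 ± 0.44 SE, adjusted p = 0.0394 by limma). With 16 added before the log its adjusted p was 0.0508. The related ligases PUB22 and PUB23 were at 0.56 ± 0.23 and 1.22 ± 0.27 and were not called. PUB12, a ligase acting on FLS2, was at 1.44 ± 0.28 (adjusted p = 0.149). CPK28, a calcium-dependent kinase that controls BIK1 turnover, was at 1.17 ± 0.24, and RBOHD, the oxidase that BIK1 phosphorylates, at 0.96 ± 0.27, neither of them called. PUB22, PUB23, CPK28 and RBOHD were named after their values were seen.

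Of 7 early output genes, CYP81F2 and WRKY33 were called higher and none was called lower, with a median of 0.46. Of all loci 0.866% were called higher. On all 3 hexenal arrays 4 of the 7 were above the control and 2 below it, beside 26.1% and 32.4% of all loci. CYP81F2, a cytochrome P450 of indole glucosinolate modification, had an intensity of 295 with acetonitrile and of 3780, 3820 and 2317 with hexenal, a log2 fold change of 3.49 ± 0.36 (SE; adjusted p = 0.0251 by limma). WRKY33, a regulator of camalexin synthesis, had an intensity of 7393 with acetonitrile and of 31718, 28373 and 33276 with hexenal, a log2 fold change of 2.08 ± 0.25 (adjusted p = 0.0365). Its call was lost without hexenal array 3 (adjusted p = 0.0509). The peroxidase gene PER4 was at 2.39 ± 0.34 (adjusted p = 0.0622).

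The early output genes lay on both sides of the control, as the loci of the whole array did. WRKY22, like WRKY29 a regulator in flagellin signalling, was above the control on all 3 arrays, at 0.46 ± 0.36 (SE; adjusted p = 0.731 by limma). WRKY29, named after its values were seen, was below the control on all 3, with 352 with acetonitrile and 168, 162 and 105 with hexenal, and a log2 fold change of -1.23 ± 0.38 (SE; adjusted p = 0.419 by limma). NHL10, also named after the fact as was WRKY22, was at -0.68 ± 0.54 (adjusted p = 0.737).

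**Figure D4:**
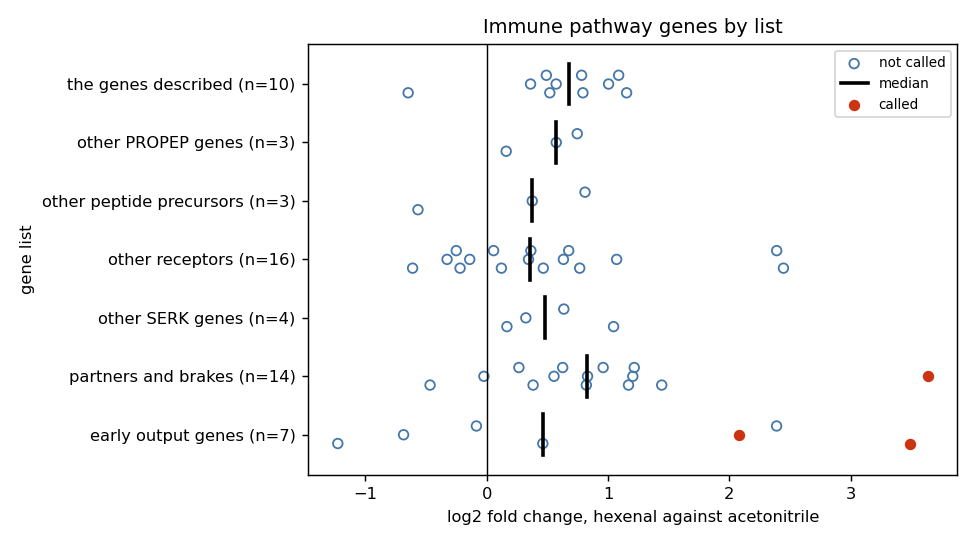
Each circle is a gene, placed by its log2 fold change between hexenal and acetonitrile (horizontal axis) in its list (rows); filled red circles were called, open circles were not, and black bars are medians. The top row holds the 10 genes described here, with a median of 0.68 and no call, and the 3 red circles are PUB24, CYP81F2 and WRKY33.

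The loci next to the members were examined as well, to see whether a member's value was shared by its surroundings. The 16 flanking loci that are not members had a median log2 fold change of 0.29, 10 of them lay above the control on all 3 hexenal arrays, and none was called. Over all loci the median was -0.03 and 26.1% lay above the control on all 3. AT2G39650, which lies beside BIK1, had an intensity of 1591 with acetonitrile and of 7421, 7539 and 12811 with hexenal. Its log2 fold change of 2.47 ± 0.39 (SE; adjusted p = 0.0859 by limma) was higher than that of BIK1, while the locus on BIK1's other side, AT2G39670, was at -0.04 ± 0.23. The loci beside FRK1, AT2G19180 and AT2G19200, were at 0.71 ± 0.36 and -0.12 ± 0.25.

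Finally, the loci with the most similar values over the 3 hexenal arrays were sought for the 2 members with the largest changes, by Euclidean distance between their log2 differences from the control. For PEPR2 they were AT2G36970 (distance 0.13), ABI1 (0.14), a protein phosphatase gene of abscisate signalling, and AT4G01897 (0.17). For BIK1 they were AT1G63730 (0.06), AT3G44400 (0.08) and the quinone reductase gene FQR1 (0.09). With 3 hexenal arrays and 1 control such likeness describes these arrays alone, and none of the 6 loci was called.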

How the data were processed

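Expression was measured on 4 one-colour NimbleGen arrays with Cy3-labelled cDNA, per the labels. The authors deposited 1 linear intensity per locus; how these were background-corrected, normalized and summarised from probes is not stated in the labels used, and no detection limit was used. The number of arrays, with 1 control, limits the precision.

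Intensities were log2-transformed and quantile normalized, and hexenal was compared with acetonitrile over all 30361 loci in R 4.3.3 with limma 3.58.1 (lmFit, eBayes, Benjamini-Hochberg adjustment, two-sided). The call threshold was an adjusted p below 0.05 with a change of 2-fold or more. The 2 residual degrees of freedom come from the hexenal arrays, whose spread is taken to hold for the control too.

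Of the array's loci 29976 matched a RefSeq table (TAIR10.1), used for names and neighbours only. The members and lists were chosen with earlier results of these data known. Of 61 list loci, 3 were not found among the array's loci and 11 were left out because the table does not give them the list's name. All members are named, with the called genes (up to 4) and the largest uncalled change of each list. Loci beside members and the 3 loci most like each of 2 members are named too. Other list genes are marked as named after their values were seen. The leaf, root and flower markers were planned as ranges only, so single markers given with values were also named after the fact. No sequence is printed. The alternatives were no or other normalization (median centring, cyclic loess), no dim loci, eBayes with trend and robust, 16 added before the log, other fold thresholds, and each hexenal array left out.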

Additional observations from a re-analysis of the deposited data

How the results depend on the processing

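The direction of all 10 members was kept under each of the alternatives that gave a value, 9 each, or 8 for PROPEP2 and PROPEP3. For several alternatives this could not be otherwise. Each member had all 3 hexenal arrays on the same side of the control, so leaving 1 out could not reverse it. The eBayes setting and the removal of dim loci leave a log2 fold change as it is. That removal took out the dimmest 25% of loci by the mean over all 4 arrays, hexenal included. PROPEP2 and PROPEP3 dropped out, whereas PROPEP1 stayed in, although its control value was in the lowest 25%. The members' calls changed under 1 setting: eBayes with trend and robust called 1 member, BIK1, and then 10 list genes and 628 loci. Leaving out the dimmest 25% of loci gave 6 called list genes, and keeping the 11 loci left out by the name rule gave 5, the added ones being AT4G37290, on the list of other peptide precursors (log2 fold change 3.84), and AT5G25930, on that of early output genes (2.73), both picked out with their values known. With each hexenal array left out in turn, the called members stayed at 0, the called list genes ran from 0 to 6 and all called loci from 0 to 388. The number of members at least 2-fold higher then ran from 1 to 3, beside 3.67% to 5.82% of all loci. The number higher at an unadjusted p under 0.05 ran from 2 to 6, beside 3.84% to 9.77%. Both counts were added after the data were seen. The log2 fold change of PROPEP2 ran from 0.07 to 0.78 and that of PROPEP1 from 0.77 to 1.39 over the arrays left out, while that of BIK1 ran from 1.05 to 1.11. The cause of these changes was not tested. No paired analysis was possible because the single control array carries no replicate number. The dim signal of the PROPEP genes, without a background level, limits their fold changes.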
